A study of Mus musculus with 5 samples.

Results

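Interferon-stimulated effector genes encode the proteins that cells make after an interferon has bound its receptor, and 40 of them were followed here across 5 expression arrays. Members were found by gene symbol. Each was represented by the probe set (the group of array probes that reads 1 transcript) with a single symbol and the highest mean over the 5 arrays. Of the 40 genes, 36 had such a probe set, out of 18194 genes on the array. Isg15, Gbp4 and Tgtp1 have probe sets that carry several symbols and Ifi44 had none listed, so these 4 genes were not analysed here. A brightness filter, which kept the 60% of genes with the highest mean, left 30 members among 10917 genes for testing. Oas3, Mx1, Mx2, Cmpk2, Socs1 and Cd274 lay under it and are described without a test.

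By its labels, the RNA came from cultured aortic endothelial cells of C57BL/6J mice, the cells that line the vessel wall. The cultures were grown with heparin and an endothelial growth supplement and fed before stimulation. The titles name 3 control arrays and 2 TNF-LTBR arrays, all at 24 h. TNF is an inflammatory cytokine and LTBR the lymphotoxin beta receptor, and the series title concerns their joint NF-kB signalling in smooth muscle cells, whereas these samples carry an endothelial label. No source used here gives the agonists or doses behind the TNF-LTBR titles, and the treatment text of all 5 samples names PBS. Separate cultures or animals are not named for the arrays, so the spread that p-values measure here may be technical.

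Type I interferons signal through a receptor built from Ifnar1 and Ifnar2 to the kinases Jak1 and Tyk2, and from there to transcription factors, Stat2 and Irf9 among them, that bind the interferon-stimulated response element (ISRE) in the promoters of target genes. Interferon gamma uses Ifngr1 and Ifngr2 and acts mainly on promoters with the gamma-activated site (GAS). NF-kB, the main factor downstream of TNF receptors, binds kappa-B sites and can raise interferon-responsive genes directly or through Irf1 and newly made interferon.

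The members differed far more between arrays of 1 group than between the groups. With each gene set to 0 at its own mean over the 5 arrays, the median of the 30 tested members was 0.0087, -0.98 and 0.64 on control arrays 1, 2 and 3, and -0.54 and 0.85 on TNF-LTBR arrays 1 and 2. These and all further levels and differences are on the scale log2(intensity + 16). TNF-LTBR array 2 and control array 3 were therefore high, control array 2 and TNF-LTBR array 1 were low, and the groups overlapped. Over all 10917 genes tested, the same medians lay between -0.0079 and 0.015. The arrays had nearly the same overall level, which holds these medians near 0 even where many genes split. Over all genes, deviations from the group means correlated at 0.8 for control 2 with TNF-LTBR 1. For control 3 with TNF-LTBR 2 the correlation was 0.814, so the split was not confined to the members. The range between the highest and the lowest array had a median of 1.91 over the 30 members and of 0.56 over all genes. It passed 2-fold for 26 members, 86.7%, against 20.6% of all genes.

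**Figure D1:**
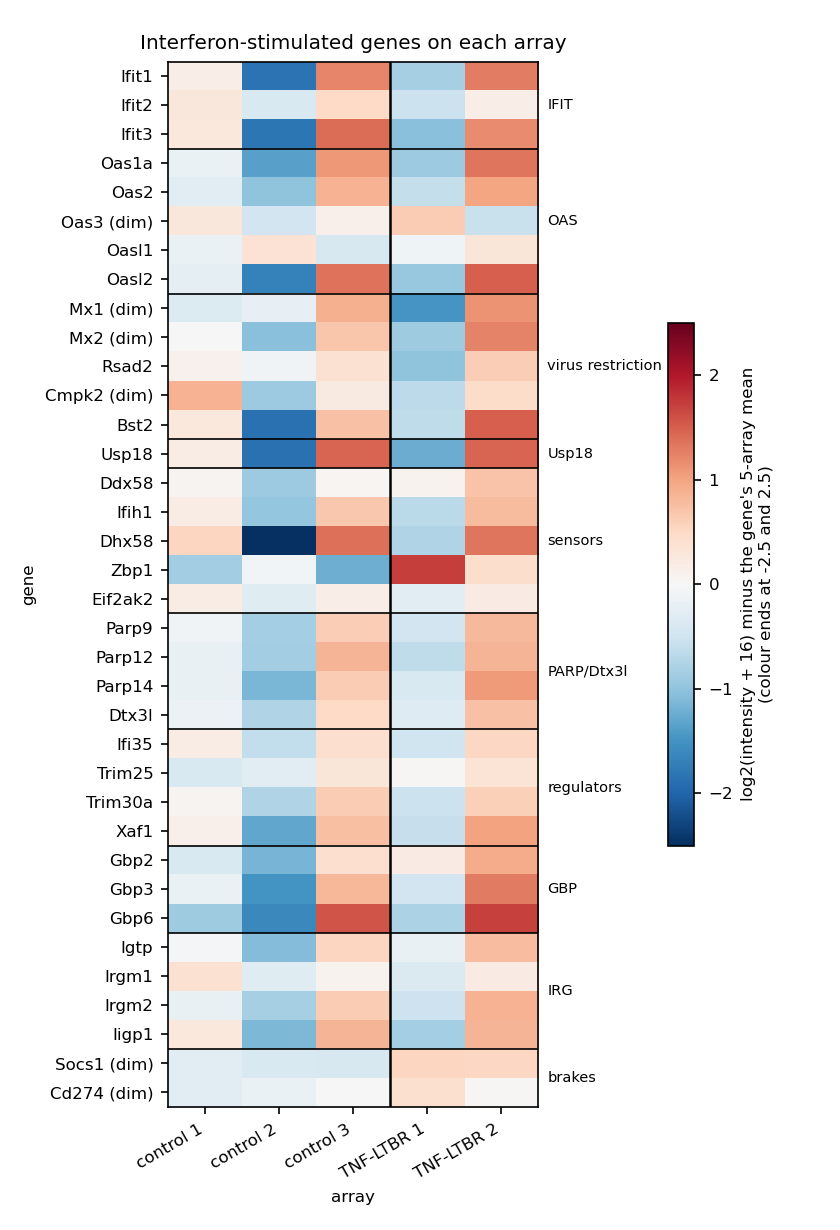
Level of each of the 36 measured genes (rows, grouped by role) on each of the 5 arrays (columns), as log2(intensity + 16) minus the gene's mean over the 5 arrays; red is higher, blue is lower, and dim marks genes under the brightness filter. Most rows are blue on control 2 and TNF-LTBR 1 and red on control 3 and TNF-LTBR 2. Zbp1, Oas3, Socs1 and Cd274 are among the rows that are red on TNF-LTBR 1.

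Markers of cell types were set beside this split. Of 15 endothelial markers, 8 lay under the brightness filter, among them Pecam1 and Cdh5, and Vwf stayed below an intensity of 16 on every array. The summed intensity of the 15 was 4201, 4666 and 3418 on control arrays, and 4138 and 3601 on TNF-LTBR arrays. It was lowest on control 3 and TNF-LTBR 2. Not every endothelial marker followed that sum: Plvap and Egfl7 were highest on TNF-LTBR 2, and Eng was higher on control 3 than on control 1. For 10 macrophage markers the sum was 4375, 8814 and 2960 on control arrays, and 9565 and 3428 on TNF-LTBR arrays. Cd14 was lowest on control 1, but the sum was highest on the 2 arrays where the effector genes were lowest. For 11 smooth muscle markers it was 28119, 20873 and 12601 on control arrays, and 14502 and 12281 on TNF-LTBR arrays, and for 10 fibroblast and pericyte markers 53205, 82755 and 87257, and 81368 and 93738. Within these lists Lum was high, and Thy1 and Tagln were low, on control 3 and TNF-LTBR 2, but other members differed. Control 2 and TNF-LTBR 1 were the 2 lowest arrays for 2 of the 8 smooth muscle markers tested, Smtn and Lmod1. The same held for 1 of the 10 fibroblast and pericyte markers, Lum, while Col1a2 ranged over only 0.23. All 7 lymphocyte and plasmacytoid dendritic cell markers lay under the filter, with a highest intensity of 150.2, and no marker listed was at 0. The highest intensity of any endothelial marker was 1858, against 9449 among smooth muscle and 20691 among fibroblast and pericyte markers. Different probe sets do not share 1 scale, and whether the cells were endothelial, as labelled, was not tested. The part of these cell types in the split was not tested, and fewer cells of a type cannot be told apart from less RNA per cell.

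Between TNF-LTBR and control, 0 of the 30 tested members passed limma at an adjusted p of 0.05 (Benjamini-Hochberg over all genes), as did 0% of all genes. At an unadjusted p under 0.05 stood 1 member, Zbp1, and 1.76% of all genes. Zbp1 had passed the brightness filter only through its TNF-LTBR arrays. The mean was higher in TNF-LTBR for 25 of 30 members, against 49.3% of all genes, and the median difference was 0.32, against -0.0035 over all genes. That lean rested on single arrays. Without TNF-LTBR array 2 the median difference was -0.44 and 5 members were higher, and without control array 2 it was -0.21 with 10 members higher. Without TNF-LTBR array 1 all 30 were higher, with a median of 0.99, and without control array 3 the median was 0.81 with 27 higher. Over all genes the median lay between -0.0030 and 0.0061 in these fits, and the share of genes with a higher mean was not counted. The groups did not overlap, with TNF-LTBR higher, in 2 of the 30 members, 6.67%, against 6.94% of all genes, and with TNF-LTBR lower in 0 members, against 6.34%. The first count was 5 without control array 3. Fewer arrays separate more easily and the share of all genes was not counted there, so the 5 cannot be set against 6.94%.

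Pairs of single arrays, which have no replicate check, showed the size of the split. Control 3 lay above control 2 by a median of 1.62, with 22 of 30 members past 2-fold higher, against 4.29% of all genes. Control 1 lay above control 2 by 0.82, with 12 members past 2-fold, against 1.87%, and control 3 above control 1 by 0.67, with 8 members, against 3.62%. TNF-LTBR 2 lay above TNF-LTBR 1 by 1.46, with 21 members past 2-fold, against 4.29%. The largest rise from control 2 to control 3 was that of Dhx58, at 3.87, and the largest from TNF-LTBR 1 to TNF-LTBR 2 that of Usp18, at 2.69. Zbp1 ran the other way in both, at -1.15 and -1.29, as the 1 member past 2-fold lower, against 6.13% and 5.85% of all genes. Below control 2 on control 1, and below control 1 on control 3, 0 members were past 2-fold, against 3.32% and 4.15%.

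The 6 pairs of a TNF-LTBR with a control array did not have 1 sign. TNF-LTBR 2 lay above control 2 by a median of 1.80 and above control 1 by 0.89, with 23 and 13 members past 2-fold higher, against 3.53% and 3.24% of all genes. Against control 3, it differed by 0.14, and 1 member, Zbp1, passed 2-fold, against 1.13%. TNF-LTBR 1 lay above control 2 by 0.44, with 7 members past 2-fold higher, against 0.925%. It lay below control 1 by a median difference of -0.53 and below control 3 by -1.24, with 5 and 20 members past 2-fold lower, against 2.79% and 6.05%. In the opposite directions, Zbp1 was past 2-fold higher on TNF-LTBR 1 than on control 1 and control 3, against 4.05% and 6.88% of all genes. No member was past 2-fold lower on TNF-LTBR 1 than on control 2, against 0.861%, or on TNF-LTBR 2 than on controls 1, 2 and 3, against 3.51%, 5.47% and 0.65%. Each array enters several pairs, so the pairs are not independent.

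**Figure D2:**
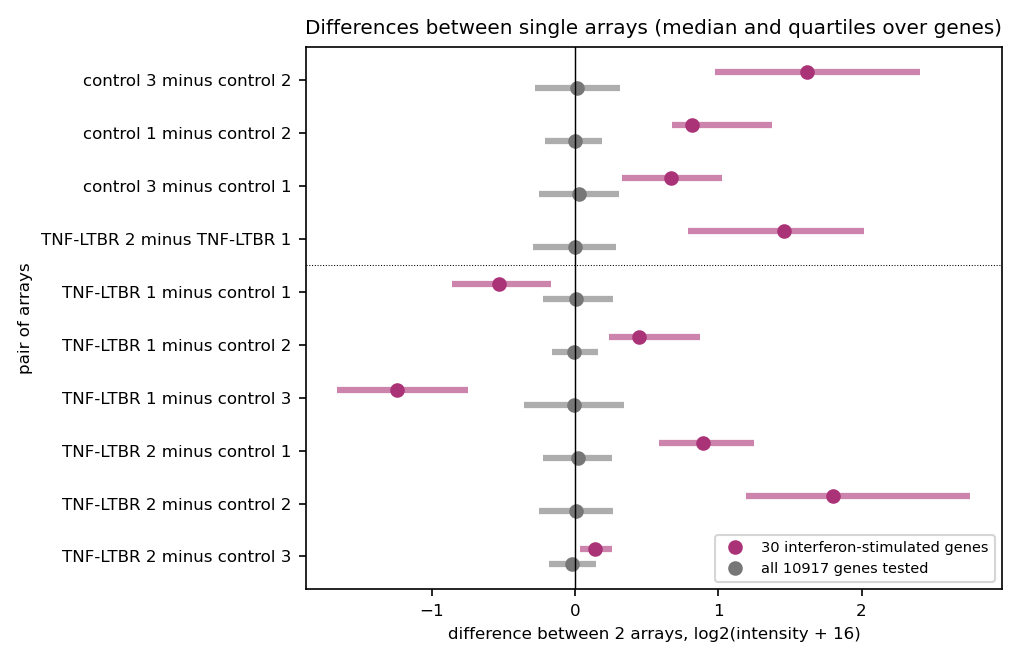
Difference between 2 single arrays on the log2(intensity + 16) scale (horizontal axis) for the 4 pairs within a group (above the dotted line) and the 6 pairs of a TNF-LTBR and a control array (below it). Points are medians and bars the quartiles over the 30 tested members (purple) or all 10917 genes (grey); members run from -1.24 for TNF-LTBR 1 minus control 3 to 1.80 for TNF-LTBR 2 minus control 2, while the grey medians stay near 0.

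The members also shared the order of the arrays. It ran from control 2 through TNF-LTBR 1, control 1 and control 3 to TNF-LTBR 2 in 15 of the 30 members, 50%, against 2.2% of all genes. Control 2 and TNF-LTBR 1 were the 2 lowest arrays for 24 members, 80%, against 20.9%. Control 2 was the lowest array for 24, against 15.4%, and TNF-LTBR 2 the highest for 21, 70%, against 16%. The order was read from these members, so the counts describe them and test nothing. Zbp1, Trim25, Ddx58, Oasl1, Gbp2 and Gbp6 were the 6 tested members with other arrays lowest. Outside the gene lists used here, 214 tested genes had the same order. The 5 with the widest range were Pappa2, a protease that cleaves an insulin-like growth factor binding protein, at 5.38, Rarres2, which encodes the chemoattractant chemerin, at 3.48, the transcript AW112010 at 3.22, the connexin gene Gja4 at 3.01 and the vesicle GTPase gene Rab3b at 2.81.

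Promoters were examined because the members moved together across arrays. RefSeq windows of 300 bases on GRCm38.p6, from 250 before to 50 after a transcript start, were given for 29 of the 40 genes. Searched on both strands were the ISRE core GAAANNGAAA, the GAS core TTCNNNGAA and the kappa-B consensus. The ISRE core was in the window of 18 genes, 62.1%, against 3.44% of all 32851 windows. The GAS core was in 8, 27.6%, against 8.3%, and the kappa-B consensus in 5, 17.2%, against 8.46%. These 5 were Gbp2, Ifit2, Oas3, Oasl1 and Bst2. Matches to different motifs overlapped in some windows and were counted for each motif. Among measured genes, the median range over the arrays was 1.72 for the 16 with an ISRE match and 1.31 for the 10 without, and the ranges of both overlapped.

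The promoters of 5 members are shown with every motif match in capitals, 5′ to 3′ on the gene's strand. Ifit3 (chr19:34583279-34583578, plus strand) has ISRE matches on the reverse strand, read as TTTC repeats, and a large spread over arrays. Bst2 (chr8:71537423-71537722, minus strand) has kappa-B, GAS and ISRE matches that overlap in 1 run. Igtp (chr11:58199306-58199605, plus strand) has a GAS match just before an ISRE match. Socs1 (chr16:10785487-10785786, minus strand) has overlapping ISRE matches, yet its levels did not follow the order of the other members. Oasl2 (chr5:114896684-114896983, plus strand) followed that order and has none of these letters in this window.
Ifit3: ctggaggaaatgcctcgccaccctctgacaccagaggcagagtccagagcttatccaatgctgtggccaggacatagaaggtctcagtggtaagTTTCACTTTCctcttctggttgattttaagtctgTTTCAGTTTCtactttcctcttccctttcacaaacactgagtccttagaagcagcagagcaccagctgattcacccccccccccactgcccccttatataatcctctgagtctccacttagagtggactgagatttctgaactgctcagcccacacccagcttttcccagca
Bst2: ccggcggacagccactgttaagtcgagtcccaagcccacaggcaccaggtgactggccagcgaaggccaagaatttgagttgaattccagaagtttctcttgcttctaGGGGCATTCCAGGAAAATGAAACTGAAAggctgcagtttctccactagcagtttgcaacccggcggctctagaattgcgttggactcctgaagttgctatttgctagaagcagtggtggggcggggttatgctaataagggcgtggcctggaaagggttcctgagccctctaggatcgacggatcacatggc
Igtp: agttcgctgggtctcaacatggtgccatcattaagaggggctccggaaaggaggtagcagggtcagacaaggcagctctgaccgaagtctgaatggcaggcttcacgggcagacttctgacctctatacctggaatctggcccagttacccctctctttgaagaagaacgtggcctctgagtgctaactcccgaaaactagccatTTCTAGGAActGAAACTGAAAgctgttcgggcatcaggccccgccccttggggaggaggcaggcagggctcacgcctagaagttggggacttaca
Socs1: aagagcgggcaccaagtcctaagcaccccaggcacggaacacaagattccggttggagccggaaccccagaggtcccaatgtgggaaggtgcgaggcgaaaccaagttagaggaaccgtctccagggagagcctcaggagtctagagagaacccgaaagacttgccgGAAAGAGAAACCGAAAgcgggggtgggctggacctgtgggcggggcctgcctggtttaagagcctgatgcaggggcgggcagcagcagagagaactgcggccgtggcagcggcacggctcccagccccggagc
Oasl2: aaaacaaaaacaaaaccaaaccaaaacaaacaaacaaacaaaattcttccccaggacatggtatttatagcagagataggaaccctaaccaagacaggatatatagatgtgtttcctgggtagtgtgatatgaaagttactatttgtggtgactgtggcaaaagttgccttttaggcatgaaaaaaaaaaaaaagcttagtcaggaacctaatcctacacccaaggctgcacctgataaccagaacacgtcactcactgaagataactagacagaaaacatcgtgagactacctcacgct

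The IFIT genes encode proteins that bind foreign RNA or slow its translation. Ifit1 lay at 11.11, 9.10 and 12.16 on control arrays 1 to 3 and at 10.12 and 12.23 on TNF-LTBR arrays 1 and 2. Control 3 and TNF-LTBR 2 were high by a wide margin and the groups overlapped, with means of 10.79 ± 1.56 (SD, n = 3) and 11.17 ± 1.49 (SD, n = 2) and a difference of 0.38 (limma adjusted p 0.999). Ifit3, with the paired ISRE matches shown above, lay at 12.12, 10.04 and 13.25 on control arrays, and at 10.81 and 13.04 on TNF-LTBR arrays. The picture was the same, and its group means differed by 0.12. Ifit2 spanned a smaller range, with 10.15, 9.48 and 10.36 on control arrays, and 9.32 and 10.03 on TNF-LTBR arrays. It was lowest on TNF-LTBR 1, the groups overlapped and the difference was -0.32 (limma adjusted p 0.999).

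The OAS genes encode enzymes that make oligoadenylates in response to double-stranded RNA and thereby switch on RNase L, and relatives without that activity. Oasl2 lay at 9.51, 8.05 and 11.09 on control arrays, and at 8.79 and 11.23 on TNF-LTBR arrays. Oas1a lay at 8.75, 7.57 and 10.001, and at 8.02 and 10.26. Both had control 2 and TNF-LTBR 1 lowest, as had Oas2, whose range was 1.99, and the group means differed by 0.33 to 0.46 in these 3 genes. Oasl1, a relative that restrains translation of Irf7, stood apart, with 7.58, 8.09 and 7.33 on control arrays, and 7.63 and 8.05 on TNF-LTBR arrays. Here control 2 was the highest array and control 3 the lowest, over a range of 0.75. Oas3 was dim, with intensities of 82.3, 42.1 and 71.8 on control arrays, and 108.8 and 39 on TNF-LTBR arrays, and also ran in another order.

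Of the genes that restrict viruses directly, Bst2, which encodes the membrane tether tetherin, ranged most. It lay at 11.52, 9.39 and 11.98 on control arrays, and at 10.61 and 12.75 on TNF-LTBR arrays. TNF-LTBR 2 exceeded all controls, TNF-LTBR 1 lay below controls 1 and 3, and the means of 10.96 ± 1.38 and 11.68 ± 1.51 differed by 0.72 (limma adjusted p 0.999). Rsad2, which encodes viperin, lay at 8.08, 7.90 and 8.36 on control arrays, and at 6.97 and 8.59 on TNF-LTBR arrays. Its 2 TNF-LTBR arrays were the lowest and the highest of the 5, and the difference of -0.33 was not shared by its dimmer probe sets, at 0.26 and 0.28. Mx1 and Mx2, which encode antiviral GTPases, were dim, and C57BL/6 mice carry a defective Mx1. Mx2 lay at 6.46, 5.42 and 7.15 on control arrays, and at 5.57 and 7.69 on TNF-LTBR arrays, in the common order. Mx1 had intensities of 32.1, 36.8 and 96.1 on control arrays, and 5.8 and 116.1 on TNF-LTBR arrays, so it was brighter on control 3 and TNF-LTBR 2, and its means differed by -0.29. Cmpk2, a mitochondrial nucleotide kinase gene beside Rsad2, lay at 7.95, 6.17 and 7.30, and at 6.41 and 7.52, again lowest on control 2 and TNF-LTBR 1.

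Usp18, which encodes the protease that takes ISG15 off its targets and also damps the type I receptor, lay at 10.13, 8.08 and 11.40 on control arrays, and at 8.70 and 11.39 on TNF-LTBR arrays. The arrays spanned 3.32, while the group means, 9.87 ± 1.68 and 10.05 ± 1.90, differed by 0.18 (limma adjusted p 0.999).

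Sensors of foreign nucleic acid gave both kinds of pattern. Dhx58, a helicase that tunes RNA sensing, lay at 8.32, 5.30 and 9.17 on control arrays, and at 7.03 and 9.12 on TNF-LTBR arrays, the widest range of any member at 3.87. Its control 2 intensity was 23.3, close to the 16 that was added before taking log2. The other Dhx58 probe sets ranged over 2.27 and 0.47, and on the narrower one control 1 was lowest and TNF-LTBR 1 highest. Ifih1, a helicase that senses long double-stranded RNA, lay at 10.28, 9.14 and 10.77, and at 9.41 and 10.88, in the common order. Eif2ak2, the kinase PKR that halts translation, varied least of all tested members on the probe sets used, with a range of 0.50. Its dimmer probe sets ranged over 1.03 and 1.11, with control 2 and TNF-LTBR 1 lowest on both.

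Zbp1 and Ddx58 were the 2 tested members whose groups did not overlap. Zbp1, a sensor of Z-form nucleic acid that can start necroptosis, lay at 6.36, 7.16 and 6.01 on control arrays, and at 8.95 and 7.66 on TNF-LTBR arrays. TNF-LTBR 1, low for most members, was the highest array here. All controls lay under the brightness filter's mean of 7.17, so Zbp1 was tested only because of its TNF-LTBR arrays. The means of 6.51 ± 0.59 (SD, n = 3) and 8.31 ± 0.91 (SD, n = 2) differed by 1.80 with a standard error of 0.53 (limma p 0.0183, adjusted p 0.999), and its dimmer probe set by 1.46, also without overlap. Without TNF-LTBR array 1 the difference was 1.15 and without TNF-LTBR array 2 it was 2.44. Ddx58, a helicase that senses RNA ends, lay at 11.12, 10.16 and 11.11 on control arrays, and at 11.16 and 11.77 on TNF-LTBR arrays. TNF-LTBR 1 cleared control 1 by only a few hundredths, and the difference was 0.66 (limma adjusted p 0.999). It was 0.34 without control array 2, and the groups overlapped on both dimmer Ddx58 probe sets, which differed by 0.41 and 0.35.

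The negative regulators Socs1 and Cd274 were both dim and both without overlap. Socs1, which encodes an inhibitor of JAK kinases, had intensities of 50.3, 45 and 44.7 on control arrays, and 99.7 and 97.9 on TNF-LTBR arrays. The levels of 5.97 ± 0.07 (SD, n = 3) and 6.84 ± 0.02 (SD, n = 2) differed by 0.87, with the arrays of each group close together. Cd274, which encodes the T cell inhibitory ligand PD-L1, lay at 6.63, 6.73 and 6.91 on control arrays, and at 7.30 and 6.93 on TNF-LTBR arrays. The nearest arrays, control 3 and TNF-LTBR 2, were almost level, and the difference was 0.36. In the fit without a brightness filter, 4 of 36 members had both TNF-LTBR arrays above all controls, 11.1%, against 8.6% of all genes. That fit called 0 of the 36. Its unadjusted p was under 0.05 for 2 of them, against 2.64% of all genes, Socs1 (limma p 0.0142, adjusted p 1.000) and Zbp1 (limma p 0.0163, adjusted p 1.000).

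**Figure D3:**
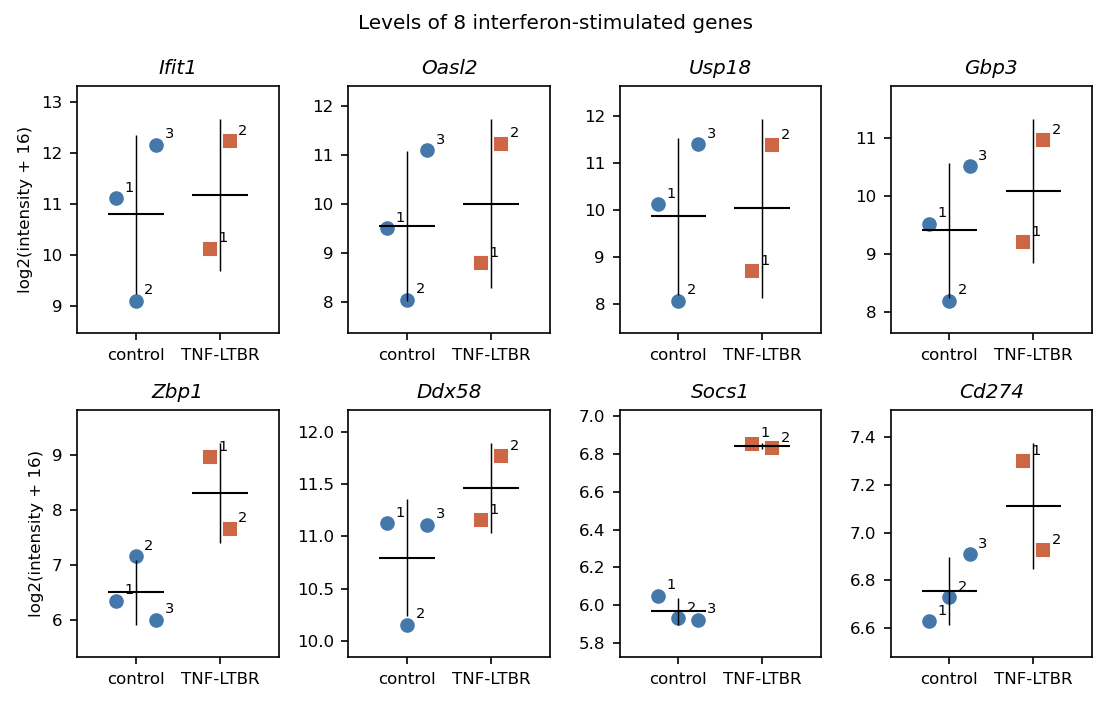
Level of 8 genes as log2(intensity + 16) (vertical axes differ and do not start at 0), with 1 point per array numbered by replicate, in control (circles) and TNF-LTBR (squares); bars mark the group mean and 1 SD (n = 3 and n = 2). In the upper row control 3 and TNF-LTBR 2 lie together at the top, and in the lower row both TNF-LTBR arrays lie above every control, by little in Ddx58 and Cd274.

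The PARP group, ADP-ribosyltransferases with the ubiquitin ligase subunit Dtx3l that pairs with Parp9, moved together across the arrays. Parp14 lay at 9.04, 8.09 and 9.86 on control arrays, and at 8.84 and 10.29 on TNF-LTBR arrays. Parp12 lay at 9.73, 9.05 and 10.77, and at 9.27 and 10.77. All 4 genes of the group had the common order of arrays, with ranges of 1.48 for Dtx3l to 2.20 for Parp14 and differences of group means of 0.17 to 0.57. Of the other regulators, Xaf1, a partner of the apoptosis inhibitor XIAP, lay at 10.50, 9.08 and 11.12 on control arrays, and at 9.80 and 11.38 on TNF-LTBR arrays. Ifi35 and Trim30a had narrower ranges of 1.14 and 1.39, and their group means differed by 0.014 and 0.047. Trim25, a ubiquitin ligase in the RNA sensing pathway, lay at 9.38, 9.48 and 10.07, and at 9.78 and 10.10. It had controls 1 and 2 lowest, with a difference of 0.30 and overlapping groups.

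The guanylate-binding proteins (GBP) and immunity-related GTPases (IRG) are induced mainly by interferon gamma and attack the vacuoles of intracellular microbes. Gbp2 lay at 9.61, 8.83 and 10.41 on control arrays, and at 10.19 and 10.92 on TNF-LTBR arrays. TNF-LTBR 1 lay above controls 1 and 2 but below control 3, and the difference of 0.94 (limma p 0.121, adjusted p 0.999) stayed positive without any 1 array, from 0.54 to 1.33. Gbp3 lay at 9.52, 8.19 and 10.52, and at 9.21 and 10.98, in the common order. Gbp6 lay at 6.34, 5.62 and 8.79, and at 6.45 and 8.94, so control 3 and TNF-LTBR 2 stood far above the other 3 arrays. Its other probe set, brighter by mean intensity though not by mean log2, showed the same split over a range of 5.24.

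Among the IRG genes, Igtp lay at 9.45, 8.42 and 10.03 on control arrays, and at 9.31 and 10.27 on TNF-LTBR arrays, with a difference of 0.49. Iigp1, an effector IRG, lay at 11.09, 9.71 and 11.68, and at 9.97 and 11.68, and its group means differed by -0.0035. Irgm2 followed the common order over a range of 1.70. Irgm1, which regulates the effector IRGs, spanned 0.75, with 11.88, 11.19 and 11.60 on control arrays, and 11.13 and 11.70 on TNF-LTBR arrays. Control 2 and TNF-LTBR 1 were again lowest, but control 1 was highest and the difference was -0.14.

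Upstream of these genes, interferons themselves were dim on every array. Of 15 ligand genes listed, 9 were measured, 0 passed the brightness filter, and the highest intensity was 165.9. Ifnb1, the interferon beta gene, had intensities of 72.2, 69.6 and 102.8 on control arrays, and 100.7 and 57.4 on TNF-LTBR arrays. Ifna1 was the 1 ligand without overlap, with a difference of 0.54, against 8.6% of all genes without a filter that had TNF-LTBR higher in this way. Ifnb1 was low on TNF-LTBR 2, where most effector genes were highest. Of the 8 receptor and kinase genes tested, 4 had TNF-LTBR higher without overlap, against 6.94% of all genes. A higher mean was found in 7, against 49.3%, and the median difference was 0.34. None passed limma after adjustment, and 2 had an unadjusted p under 0.05, against 1.76% of all genes. Ifnar1 lay at 9.51, 9.57 and 9.52 on control arrays, and at 9.86 and 9.94 on TNF-LTBR arrays, a difference of 0.36 (limma p 0.0363, adjusted p 0.999). Ifnar2 differed by 0.31, Tyk2 by 0.082, and Ifngr2 by 0.74 (limma p 0.0177, adjusted p 0.999), each without overlap. With each probe set taken by itself, the median difference over the Ifngr2 probe sets was smaller, at 0.44. Ifnar1, Ifnar2, Tyk2 and Ifngr2 were named for their lack of overlap, so TNF-LTBR 1 could not be among their 2 lowest arrays. Ifngr1 lay at 10.54, 10.28 and 12.00 on control arrays, and at 10.82 and 12.55 on TNF-LTBR arrays, high on control 3 and TNF-LTBR 2 like the effectors. Jak2 was highest on TNF-LTBR 1, at 10.86, with a difference of 0.55 and overlapping groups.

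The transcription factors divided in the same way. Stat2 lay at 9.29, 8.63 and 10.63 on control arrays, and at 8.46 and 10.90 on TNF-LTBR arrays, and Irf7, which amplifies interferon production, at 9.20, 8.33 and 10.26, and at 8.55 and 11.04. Irf9 lay at 10.43, 9.51 and 10.90, and at 9.71 and 10.77. All 3 had control 2 and TNF-LTBR 1 lowest, and their groups overlapped. Irf1 instead had both TNF-LTBR arrays above all controls, with 10.18, 10.27 and 10.34 against 10.75 and 10.91 (limma p 0.00769, adjusted p 0.999). Of the 8 factors tested, 5 had the 2 lowest arrays in common with the effectors, against 20.9% of all genes, and 0 passed limma. Irf1 alone had TNF-LTBR higher without overlap, against 6.94% of all genes. It alone had an unadjusted p under 0.05, against 1.76%.

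**Figure D4:**
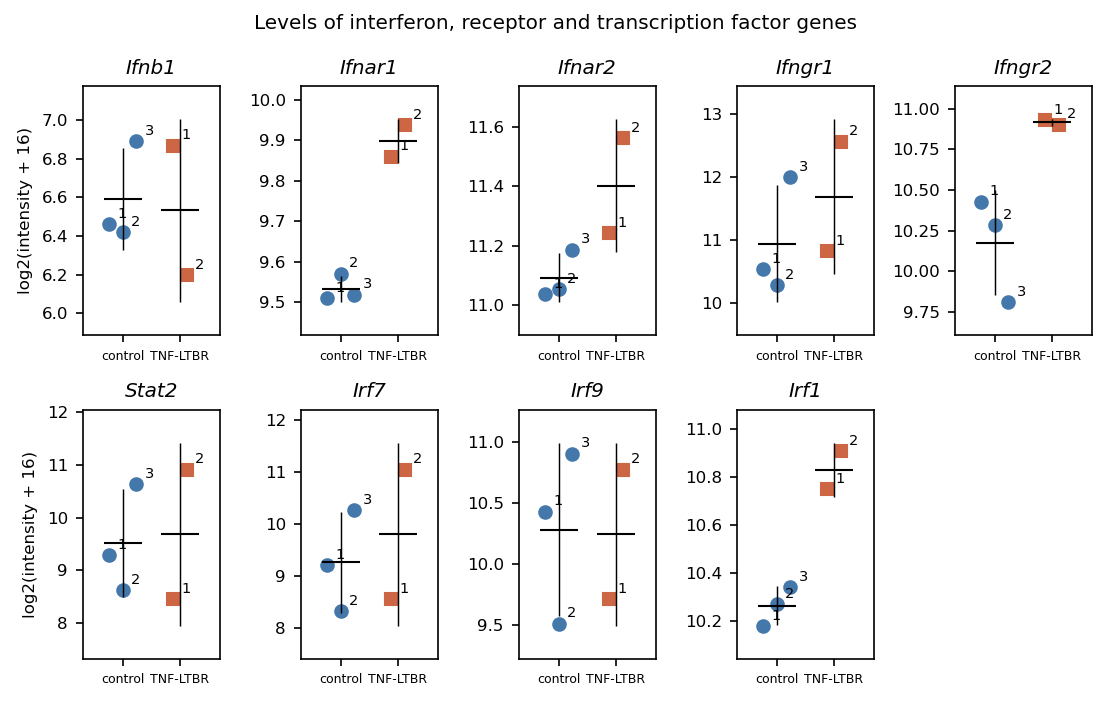
Level of 9 genes that make, receive or relay interferon signals, as log2(intensity + 16) (vertical axes differ and do not start at 0), drawn as 1 numbered point per array with the group mean and 1 SD (n = 3 control, circles; n = 2 TNF-LTBR, squares). Stat2, Irf7 and Irf9 repeat the split of control 3 and TNF-LTBR 2 from control 2 and TNF-LTBR 1, Ifnar1, Ifnar2, Ifngr2 and Irf1 separate by title, and Ifnb1 does neither.

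Further interferon-stimulated genes outside the 40 gave the same picture. Of 34 listed, 28 were tested and 0 passed limma (0 also at an unadjusted p under 0.05). A higher mean in TNF-LTBR was found in 25, against 49.3% of all genes. Control 2 and TNF-LTBR 1 were lowest in 16, against 20.9%. Ifi27l2a, a mitochondrial interferon-induced gene, had the widest range, 5.16, with 10.18, 7.42 and 12.40 on control arrays, and 7.27 and 12.43 on TNF-LTBR arrays. Rtp4 ranged over 3.65 and Cxcl10, a T cell chemokine, over 2.67, both lowest on control 2 and then TNF-LTBR 1. Slfn2, Ly6e and Apobec3 were the 3 with both TNF-LTBR arrays above all controls, against 6.94% of all genes tested. Slfn2, which keeps T cells quiescent, lay at 10.34, 8.86 and 9.21 on control arrays, and at 10.56 and 10.67 on TNF-LTBR arrays (limma p 0.0506, adjusted p 0.999), and Ly6e and Apobec3 differed by 0.74 and 0.56. Without probe sets that carry shared-sequence suffixes, Ly6e differed by only 0.27. Slfn5, under the filter, lay below all controls on both TNF-LTBR arrays, with a difference of -0.47. Among 7 adaptors that lead to interferon production, Tlr3 ranged most and was highest on control 3 and TNF-LTBR 2. Among 6 signalling brakes, Socs3 ranged most, and it ran the other way, with 9.70, 11.07 and 10.14 on control arrays, and 11.09 and 9.74 on TNF-LTBR arrays. In the adaptor and brake lists 0 genes passed limma, adjusted or not.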

How the data were processed

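The series matrix gave 1 array intensity per probe set and array, on a linear scale, as deposited by the authors. The submitters' processing notes name GCOS 1.4. The summarising algorithm, scaling target and genome build are named by no source used here. The mean was 500 on each array once 2% of probe sets at either end were set aside, and array medians lay between 109.9 and 120.7. Values were used as deposited, since medians differed by no more than about 10%. Symbols came from the platform annotation: 34958 of 45101 probe sets had 1 symbol, 932 several and 9211 none.

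Intensities were transformed to log2(intensity + 16), which understates changes of dim genes, and 1 probe set per gene was kept by its highest mean log2 value. Genes with a mean of at least 7.17 were tested in R 4.3.3 with limma 3.58.1 (lmFit, eBayes with intensity trend, two-sided, 3 residual degrees of freedom). The fit was run on simulated arrays with independent noise smaller than the measured spread. That run checks the code and cannot show which changes would be called at the spread of these arrays. With 3 arrays against 2, the smallest two-sided p of an exact permutation test is 0.1. The number of arrays limits the precision. Members and lists were chosen with earlier results of these data known. All 40 members were accounted for. Those described in full had the widest range of their role group, non-overlapping groups or a difference under -0.25. Of other lists, up to 3 genes with the widest range and those without overlap were named. Other markers and genes were chosen after their values were seen.

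The alternatives were pseudocounts of 1 and 64, no filter, the brightest 40% of genes, median centring, quantile normalization, each probe set by itself, no probe sets with shared-sequence suffixes, no trend, array weights, a replicate block, and leaving out each array. Choosing probe sets by mean intensity was added after seeing the data.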

Additional observations from a re-analysis of the deposited data

How the results depend on the processing

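The count of members called by limma was 0 under every alternative run. The median member difference lay between 0.28 and 0.47 in the alternatives that compared all 5 arrays, and between -0.44 and 0.99 when 1 array was left out. Members with a higher mean in TNF-LTBR numbered 5 to 30 when 1 array was left out. The count with both TNF-LTBR arrays above all controls was 4 without a filter, and 1 each with the brightest 40% of genes, with median centring and without shared-sequence suffixes. It was 2 to 22 when 1 array was left out. Under the 9 settings of scale, filter and probe set, the median differences between arrays of 1 group and the member medians of controls 2 and 3 and of both TNF-LTBR arrays kept their sign. The member median of control 1, near 0, ran from -0.084 to 0.073, and the count of members in the common order from 13 to 20. With the replicate block, which takes control array 3 out of the comparison, 0 members and 0 genes were called and the median member difference was 0.81. The block turned Eif2ak2 to 0.030, Iigp1 to 0.43, Irf9 to 0.27 and Ifi27l2a to 1.05. Deviations from the group means correlated over 10917 genes at 0.127 for the arrays numbered 1 and at -0.80 for those numbered 2, so the numbers were not taken as pairs. The correlation was 0.80 for control 2 with TNF-LTBR 1 and 0.814 for control 3 with TNF-LTBR 2. Deviations of the 2 TNF-LTBR arrays mirror each other, so the 0.80 is the -0.80 above with its sign turned. Control deviations sum to 0, so these correlations are not independent. The sign also turned for Ifi35 with median centring (-0.012), for Iigp1 with every probe set (0.014), without shared-sequence suffixes (0.032) and with array weights (0.14), for Rsad2 with every probe set (0.26), and with array weights for Irf9 (0.0686) and Ifi27l2a (0.31). The cause was not tested. Leaving out 1 array turned the sign of 25 of the 30 tested members. The ranges were -0.67 to 1.44 for Ifit1, -0.68 to 0.030 for Ifit2, -0.995 to 1.24 for Ifit3, -0.76 to 1.48 for Oas1a, -0.46 to 1.12 for Oas2, -0.033 to 0.38 for Oasl1, -0.76 to 1.68 for Oasl2, -1.15 to 0.48 for Rsad2, -0.35 to 1.79 for Bst2 and -1.17 to 1.52 for Usp18. They were -0.65 to 0.82 for Ifih1, -0.67 to 1.53 for Dhx58, -0.27 to 0.19 for Eif2ak2, -0.37 to 0.92 for Parp9, -0.57 to 0.92 for Parp12, -0.16 to 1.29 for Parp14, -0.18 to 0.86 for Dtx3l, -0.49 to 0.52 for Ifi35, -0.52 to 0.61 for Trim30a and -0.43 to 1.14 for Xaf1. They were -0.20 to 1.56 for Gbp3, -0.47 to 2.02 for Gbp6, -0.42 to 0.14 for Irgm1, -0.39 to 1.00 for Irgm2 and -0.86 to 0.85 for Iigp1. Of the pathway genes, the ranges were -0.57 to 0.49 for Irf9, -0.71 to 1.78 for Irf7, -1.06 to 1.39 for Stat2, -0.12 to 1.61 for Ifngr1, -0.38 to 0.93 for Tlr3, -0.57 to 0.79 for Socs3, -0.91 to 1.42 for Rtp4, -2.73 to 2.43 for Ifi27l2a and -0.55 to 1.92 for Cxcl10. Zbp1, Ddx58, Gbp2, Igtp and Trim25 kept a positive difference under all alternatives run in which they were tested.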
